A study of Mus musculus with 2 samples.

Results

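Complement is described here through 9 genes that encode complement components, namely C1qa, C1qb, C1qc, C2, C3, C4b, C7, Cfb and C3ar1. Members were picked by gene symbol, with earlier results of these data known. Of the 9, 8 were matched among the 21113 genes of the table. C7 was not analysed here. Polyadenylated RNA of the mammary gland was sequenced in 2 libraries from C57BL/6 mice at postnatal week 6, 1 library for each genotype. The ILN/ILN library came from gland homozygous for an IRES-LacZ-Neo (ILN) cassette inserted at the Mir212/132 locus, and the WT library came from wild-type gland. No cell type restriction of the cassette is given in the labels, and neither is the number of animals behind each library, nor whether the lymph node of the gland was removed. The miRNAs of the locus were not analysed here, and the genotypes are therefore taken from the labels alone.

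Complement is a set of plasma and tissue proteins that tags microbes, dying cells and debris for removal. The classical pathway starts when C1q, built from A, B and C chains, binds a target and activates the proteases C1r and C1s, which cleave C4 and C2. The alternative pathway uses factor B, factor D (adipsin) and properdin. Both make an enzyme that cleaves C3, the central component, and the C3a fragment signals through the receptor C3aR1. The liver makes most plasma complement, but C1q comes largely from macrophages and dendritic cells, and adipocytes are the main source of adipsin.

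Fragments on genes summed to 42953129 in the ILN/ILN library and 46133338 in the WT library. Levels are the deposited FPKM-like values, which are scaled for a deposited length of each gene and for library size. They can be compared between genes. Folds compare each gene's fragments as a share of its library total, with 95% exact conditional intervals in parentheses. These intervals cover counting error only. With 1 library per genotype there is no replicate check and no test, so "lower" and "higher" describe these 2 libraries. A gene counted as past the fold when its ratio of (value + 1) between libraries reached 1.5 in either direction. Only genes that reached a value of 1 in ILN/ILN, in WT or in both counted as measured.

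The 3 C1q genes lie side by side on chromosome 4 and were the members that differed by the largest fold. The table of promoter sequences used here (RefSeq, GRCm38.p6, minus strand for each) matched 4 of the 8 analysed members, C1qb, C1qc, C3 and C3ar1. The promoters of C1qb (chr4:136886151-136886450) and C1qc (chr4:136892865-136893164), 2 members that were both lower, are shown beside that of C3 (chr17:57228087-57228386), a member that differed little. Each runs from 250 bases before to 50 after the annotated start, 5′ to 3′. Capitals mark matches, on either strand, to 1 of 5 motifs: GAGGAAG (bound by PU.1-type factors of myeloid cells), an interferon-stimulated response element, TTCNNNGAA (STAT), a kappaB element and TTGCNNAA (C/EBP).
C1qb: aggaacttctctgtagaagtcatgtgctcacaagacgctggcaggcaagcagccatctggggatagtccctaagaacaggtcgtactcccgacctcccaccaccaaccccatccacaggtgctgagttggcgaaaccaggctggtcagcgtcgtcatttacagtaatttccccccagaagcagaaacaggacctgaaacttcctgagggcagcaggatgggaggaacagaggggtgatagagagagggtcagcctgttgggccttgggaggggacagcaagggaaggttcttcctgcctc
C1qc: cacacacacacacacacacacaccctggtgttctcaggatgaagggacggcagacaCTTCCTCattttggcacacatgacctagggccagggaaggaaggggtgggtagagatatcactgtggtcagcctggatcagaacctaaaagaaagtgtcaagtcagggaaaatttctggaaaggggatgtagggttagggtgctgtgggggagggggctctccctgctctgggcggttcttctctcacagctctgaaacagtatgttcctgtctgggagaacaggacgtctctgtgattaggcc
C3: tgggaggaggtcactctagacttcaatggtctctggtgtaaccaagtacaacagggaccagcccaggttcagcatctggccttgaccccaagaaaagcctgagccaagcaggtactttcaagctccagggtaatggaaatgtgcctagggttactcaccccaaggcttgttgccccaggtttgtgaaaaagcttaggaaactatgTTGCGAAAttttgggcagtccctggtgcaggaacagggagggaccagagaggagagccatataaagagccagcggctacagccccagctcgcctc

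The C1qc window held 1 match to GAGGAAG, as its reverse complement CTTCCTC, starting at position -194 from the start site. That motif was found in 13.6% of all 32851 promoter windows of the same length. The C3 window held 1 match to TTGCNNAA at position -45, a motif in 10.8% of windows. C3ar1, whose window is not shown, held 1 match to the kappaB element at position -14, in 1.63% of windows. The C1qb window held no match to any of the 5, and the interferon-stimulated response element (3.44% of windows) and TTCNNNGAA (8.30%) matched none of the 4 members. No match overlapped another. These matches describe letters only.

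Across the 8 members, 7 had a log2 ratio of (value + 1) below 0 and 1 above 0, and the median was -0.22, against a median of 0.02 over all 11556 measured genes. Past the fold, 3 members were lower in the ILN/ILN library and 0 were higher. Over all measured genes 623 were lower past the fold, or 5.39%, and 220 were higher, or 1.9%. Since 7 of the members had a value of at least 50, the same share was taken among the 1715 genes at that level, where 67 were lower (3.91%) and 25 higher (1.46%). All 3 members past the fold were C1q genes, and the other 5 members lay within it. In a bulk gland, fewer cells of a type and less RNA per cell cannot be told apart.

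**Figure D1:**
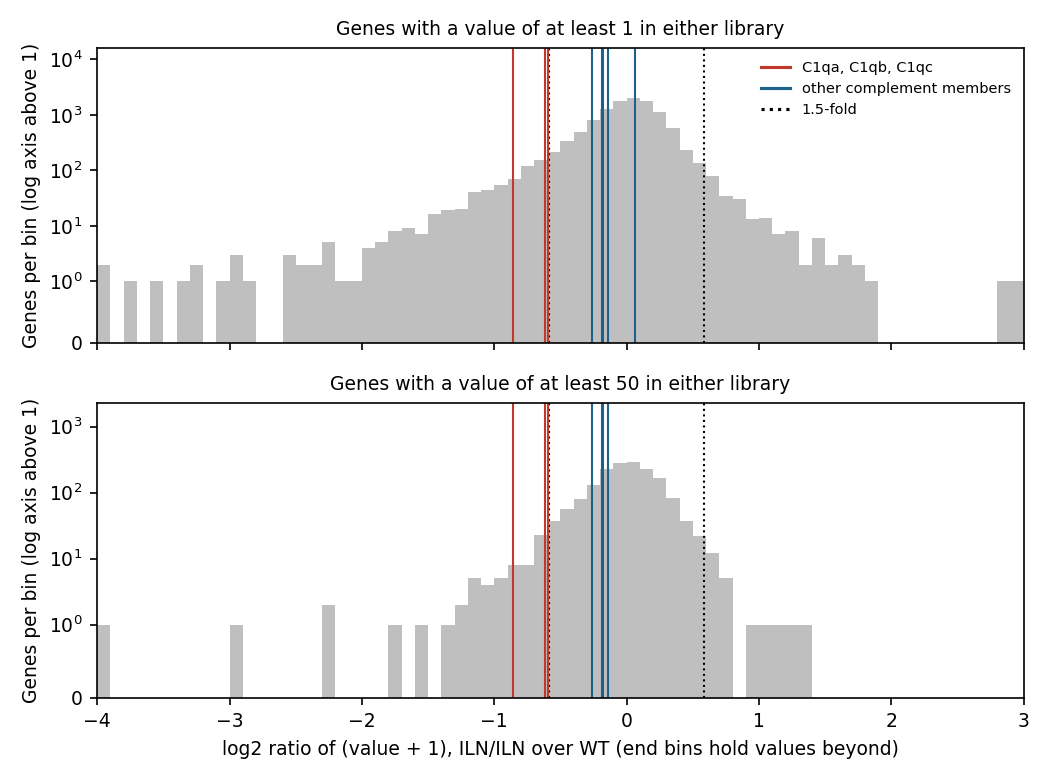
Histogram of log2 ratios of (value + 1), ILN/ILN over WT, with the number of genes per bin on an axis that is logarithmic above 1, for measured genes (top) and for those that reached a value of 50 in a library (bottom). Vertical lines mark C1qa, C1qb and C1qc in red, the other members in blue and the 1.5-fold limits as dots; the C1q lines lie at -0.60, -0.61 and -0.86, beyond the lower limit, while the other members sit near the bulk of genes.

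C1qa encodes the A chain of C1q. It had a value of 191.9 in the ILN/ILN library and 291 in the WT library, from 8741 fragments in ILN/ILN and 14241 in WT. It was 1.52-fold lower (1.48 to 1.56) in ILN/ILN, which puts it just past the limit. C1qb, encoding the B chain, had 468 in ILN/ILN and 718 in WT, from 20910 fragments in ILN/ILN and 34419 in WT. It was 1.53-fold lower (1.51 to 1.56). C1qc, encoding the C chain, had 295 in ILN/ILN and 537 in WT, from 13201 fragments in ILN/ILN and 25790 in WT. It was 1.82-fold lower (1.78 to 1.86), the largest difference among the 8 members. Summed over the 3 genes, the level was 956 in ILN/ILN and 1546 in WT, 1.62-fold lower.

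The chains differed from each other in how far they were lower. Within the ILN/ILN library the level of C1qa was 0.410 of that of C1qb (0.400 to 0.420), and within the WT library 0.406 (0.398 to 0.414). The ratio of these ratios, ILN/ILN over WT, was 1.01 (0.979 to 1.04), so C1qa and C1qb kept the same proportion within counting error. C1qc stood at 0.631 of C1qb in ILN/ILN (0.617 to 0.645) and 0.749 in WT (0.737 to 0.761). Here the ratio of ratios was 0.843 (0.820 to 0.866). The proportion of C1qc to its partners was therefore lower in ILN/ILN by more than counting error, although how much this proportion varies between animals was not measured. C1qa, C1qb and C1qc each have 1 isoform in the table, so their values come from fragments directly.

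**Figure D2:**
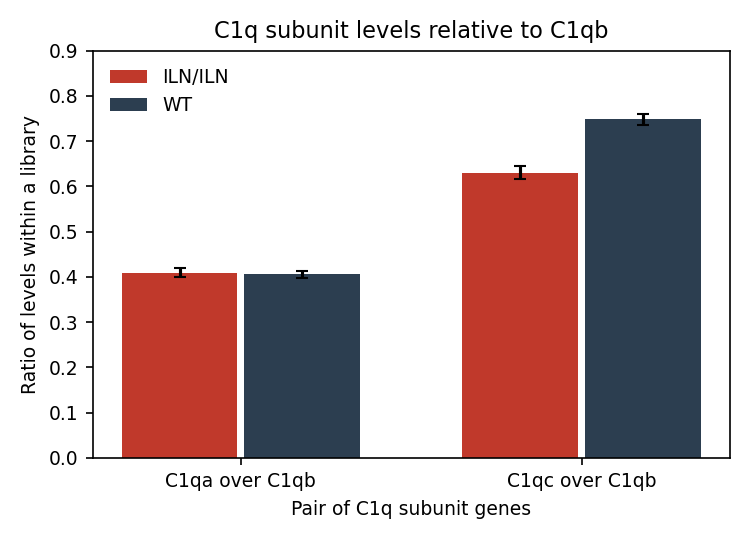
Levels of C1qa and C1qc relative to C1qb within each library (bars, from 0), with 95% intervals for counting error only, ILN/ILN in red and WT in dark blue. C1qa over C1qb is 0.410 in ILN/ILN and 0.406 in WT, while C1qc over C1qb is 0.631 in ILN/ILN and 0.749 in WT.

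The components of the C3-cleaving enzymes were lower by at most 1.2-fold. C2, the serine protease that joins C4b in the classical enzyme, had 81.9 in ILN/ILN and 98.2 in WT, from 9510 fragments in ILN/ILN and 12252 in WT, 1.20-fold lower (1.17 to 1.23). C4b, which encodes complement C4, had 327 in ILN/ILN and 370 in WT, from 58465 fragments in ILN/ILN and 71017 in WT, 1.13-fold lower (1.12 to 1.14). C4a is a close copy of C4b with 15 fragments in ILN/ILN and 27 in WT, and reads could be shared between the copies. C3 had 867 in ILN/ILN and 957 in WT, from 198838 fragments in ILN/ILN and 235782 in WT, 1.10-fold lower (1.10 to 1.11). These intervals exclude 1 because the genes are deeply covered, and the differences are small against 1.5-fold.

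Cfb encodes factor B, the protease of the alternative enzyme and a paralog of C2. It had 229 in ILN/ILN and 261 in WT, a ratio of 0.877. The deposited value of Cfb came in both libraries from an estimate derived from its 2 isoforms, 1.77 times the original estimate in ILN/ILN and 1.91 times in WT. Its 15298 fragments in ILN/ILN and 17338 in WT gave 1.06-fold lower (1.03 to 1.08). Cfb and C2 are neighbours on chromosome 17, and in the GENCODE annotation of GRCm38 a read-through gene, Gm20547, overlaps both. The sources used here do not give how reads in such overlaps were counted. C3ar1, the receptor for C3a on myeloid cells, was the least abundant member, with 3.64 in ILN/ILN and 3.44 in WT. From 695 fragments in ILN/ILN and 706 in WT the ratio was 1.06 (0.951 to 1.18), an interval that includes 1, so no difference was detectable at this depth.

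**Figure D3:**
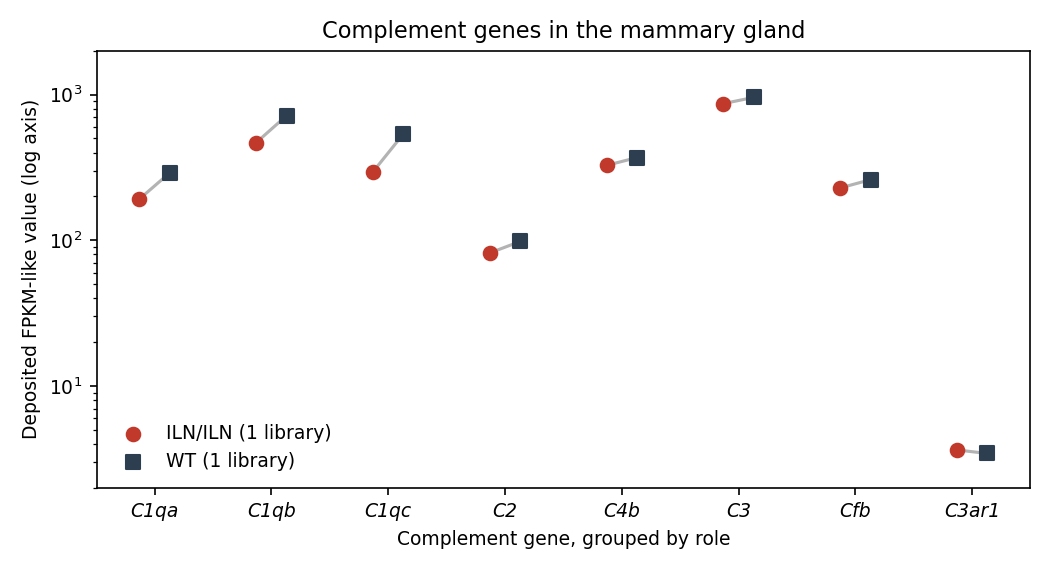
Deposited FPKM-like value of each complement member on a logarithmic axis, with ILN/ILN as a red circle to the left and WT as a dark blue square to the right, 1 library each, and genes grouped by role. The grey links slope most for C1qa, C1qb and C1qc, and C3ar1 lies far below the others, at 3.64 in ILN/ILN and 3.44 in WT.

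Ranked by value among all 21113 genes, 7 of the 8 members lay within the first 1069 places in ILN/ILN and the first 896 in WT, and C3ar1 was at 8399 in ILN/ILN and 8650 in WT. C3 ranked 116 in ILN/ILN and 116 in WT, and was the most abundant member in both. In ILN/ILN the order of levels was C3, C1qb, C4b, C1qc, Cfb, C1qa, C2 and C3ar1. In WT it was C3, C1qb, C1qc, C4b, C1qa, Cfb, C2 and C3ar1, so C1qc and C4b changed places, as did C1qa and Cfb. The second change rests on the derived estimate of Cfb, since by the original estimate C1qa stood above Cfb in both libraries, at 8672 against 5843 per kilobase in ILN/ILN and 14128 against 6623 in WT. C1qc ranked 331 in ILN/ILN and 208 in WT, and C1qa ranked 481 in ILN/ILN and 335 in WT. Of the summed member levels, C3 made up 35.2% in ILN/ILN and 29.6% in WT, C1qb 19.0% in ILN/ILN and 22.2% in WT, and C1qc 12.0% in ILN/ILN and 16.6% in WT. By fragments the 8 members took 0.758% of the ILN/ILN library and 0.892% of the WT library.

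Further complement genes came from a list of 53 genes by role, of which 49 had a row and 27 were measured. Of those 27, 4 were lower past the fold (14.8%, against 5.39% over all measured genes). None was higher, against 1.9% over all measured genes, and 18 had a log2 ratio below 0. The median was -0.30, against 0.02 over all measured genes. The 4 that passed were Fcna, Cfp, C6 and Clu.

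C1ra, encoding the protease C1r, had 126 in ILN/ILN and 173 in WT, 1.38-fold lower (1.34 to 1.41). C1s, encoding its partner protease, had 92.6 in ILN/ILN and 124 in WT, 1.34-fold lower (1.31 to 1.38). Serping1, the inhibitor of C1r and C1s, had 483 in ILN/ILN and 670 in WT, 1.39-fold lower (1.37 to 1.41). All 3 lay between the C1q genes and the C2, C4b and C3 group.

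In the lectin pathway, Fcna, which encodes ficolin A, a sugar-binding starter protein, had 69.4 in ILN/ILN and 109 in WT, 1.57-fold lower (1.51 to 1.63). Colec12, a collectin receptor that lies on the cell surface, had 16.3 in ILN/ILN and 13.3 in WT, 1.22-fold higher (1.15 to 1.30). Colec11 had 1.72 in ILN/ILN and 2.38 in WT, 1.38-fold lower (1.07 to 1.79). Fcnb, ficolin B of myeloid cells, had 0 fragments in ILN/ILN and 37 in WT, and its value stayed under the minimum in both. The mannose-binding lectin genes Mbl1 and Mbl2 were at 0 in both libraries. The protease gene Masp2 had 11 fragments in ILN/ILN and 6 in WT, a ratio of 1.97 (0.668 to 6.48), whereas its deposited value, from derived estimates, was 0.975 in ILN/ILN and 1.42 in WT. It is counted among the 18 genes below 0, and its log2 ratio is the median of the list.

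In the alternative pathway, Cfd, encoding factor D, had 25466 in ILN/ILN and 33952 in WT, 1.33-fold lower (1.33 to 1.34). Cfp, encoding properdin, which stabilises the enzyme and is made by myeloid cells, had 125 in ILN/ILN and 203 in WT, 1.63-fold lower (1.58 to 1.67). Among the terminal components that form the membrane pore, C6 had 2.84 in ILN/ILN and 6.98 in WT, 2.46-fold lower (2.17 to 2.78). Hc, which encodes C5, had 2 fragments in ILN/ILN and 69 in WT, 32.1-fold lower (8.56 to 271), and both values were under the minimum. C8g had 3.33 in ILN/ILN and 3.02 in WT. C8a, C8b and C9 were at 0 in both libraries.

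Among soluble regulators, Clu, encoding the chaperone and terminal pathway inhibitor clusterin, had 65.3 in ILN/ILN and 143 in WT, 2.19-fold lower (2.12 to 2.27). Vtn, encoding vitronectin, which also blocks pore assembly, had 12.7 in ILN/ILN and 17.6 in WT. Of the membrane regulators, 3 of 4 measured genes lay above 0, and Cd55 lay below it. Their median was 0.18, against 0.02 over all measured genes. Cd59a, which blocks the pore, had 61.7 in ILN/ILN and 54.3 in WT, 1.14-fold higher (1.09 to 1.19). Cr1l, the rodent regulator Crry that limits C3 cleavage on cells, had 34.4 in ILN/ILN and 30.4 in WT, 1.13-fold higher (1.07 to 1.20). None of the 4 passed the fold.

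None of 9 measured receptor genes passed the fold, with 5 below 0 and 4 above. C5ar1, the receptor for the C5a fragment, had 11.3 in ILN/ILN and 15.7 in WT, 1.39-fold lower (1.29 to 1.498). Itgam and Itgb2 encode the chains of complement receptor 3 of phagocytes. They were 1.27-fold (1.21 to 1.34) and 1.26-fold lower (1.20 to 1.32). Cd93, a surface protein of endothelium once described as a C1q receptor, had 4.12 in ILN/ILN and 2.59 in WT, 1.59-fold higher by fragments (1.46 to 1.74). Its ratio of (value + 1) stayed inside the limit. Cr2, the complement receptor of B cells and follicular dendritic cells, had 32 fragments in ILN/ILN and 217 in WT, 6.31-fold lower (4.34 to 9.46), with both values under the minimum.

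**Figure D4:**
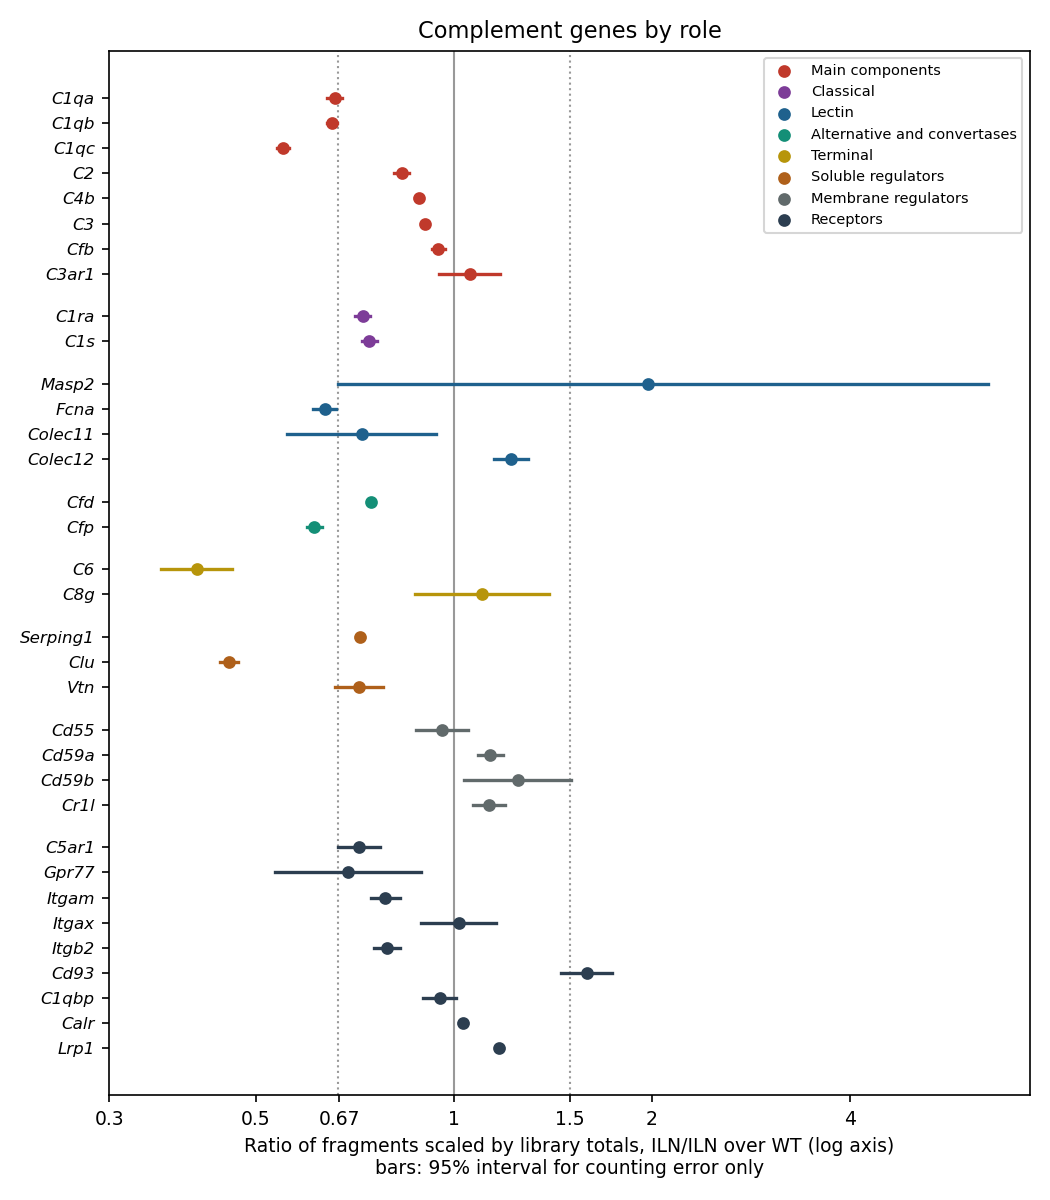
Ratio of fragments scaled by library totals, ILN/ILN over WT, on a logarithmic axis, for the 8 members and for the measured genes of the wider complement list that are reported here, by role. Bars are 95% intervals for counting error only, and dotted lines mark 1.5-fold. Among the genes plotted, C1qc, Clu and C6 lie farthest to the left at 0.550, 0.456 and 0.407, and Masp2, with its few fragments, has the widest interval.

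Macrophages are the usual source of C1q, so their markers were read beside the C1q genes. All 11 measured macrophage markers had a log2 ratio below 0, from -0.59 to -0.01. Their median was -0.33, against 0.02 over all measured genes. Past the fold was 1 of them (9.09%, against 5.39% over all measured genes). Maf, a transcription factor gene, had 7.28 in ILN/ILN and 11.4 in WT, 1.57-fold lower. Cd163, a haemoglobin scavenger receptor, had 34.5 in ILN/ILN and 50.5 in WT, 1.46-fold lower. Csf1r, the growth factor receptor of the lineage, had 93.4 in ILN/ILN and 132 in WT, 1.42-fold lower. The summed level of the 12 markers was 1353 in ILN/ILN and 1623 in WT, 1.20-fold lower, and the summed C1q level was 0.707 of it in ILN/ILN and 0.953 in WT. Lyz2 alone made up 836 of that sum in ILN/ILN and 990.1 in WT. Maf, Cd163 and Csf1r had the lowest ratios among the measured markers of the list, and the other 8 were at most 1.35-fold lower.

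Markers of sinus and resident macrophages were lower past the fold in 3 of 5 measured genes, against 5.39% over all measured genes. Their median was -0.79. Marco, a scavenger receptor, had 2.07 in ILN/ILN and 41.3 in WT, 19.9-fold lower (17.1 to 23.3), and Timd4, a receptor for dying cells, had 10.3 in ILN/ILN and 27.9 in WT. Folr2, a receptor of resident macrophages, had 150.4 in ILN/ILN and 219.9 in WT, 1.46-fold lower (1.42 to 1.51). The summed level of this list was 227 in ILN/ILN and 376 in WT, and the summed C1q level was 4.21 times it in ILN/ILN and 4.11 times in WT. Folr2 alone holds most of this sum in both libraries. Marco adds 2.07 to it in ILN/ILN and 41.3 in WT, so both multiples depend on which markers are summed. They are not levels per cell. The part of any macrophage population in the C1q difference was not tested.

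Markers of other cell types differed as well. For comparison, 5.39% of all measured genes were lower past the fold. All 7 B cell markers and all 7 T cell markers were lower past the fold, with summed levels of 34.2 in ILN/ILN and 180 in WT for B cells, and 22.1 in ILN/ILN and 60.9 in WT for T cells. The list named for lymph node stroma and follicular dendritic cells summed to 21.4 in ILN/ILN and 126 in WT, and 4 of 5 were lower past the fold. Glycam1, Cxcl13 and Ltb had values of 53.2, 29.5 and 28.2 within that WT sum. Not every gene of the list is restricted to those cells. All 5 neutrophil markers were lower past the fold, summed at 62.7 in ILN/ILN and 315 in WT. The 7 measured luminal epithelium markers were all lower, with a summed level of 0.739 in ILN/ILN and 39.8 in WT, and the list had 4 genes at 0 in ILN/ILN, among them the keratin Krt8 with 0 fragments against 742 in WT. Of 4 basal markers, Krt5 and Krt14 were at 0 in ILN/ILN, with 78 and 62 fragments in WT, and both stayed under the minimum value. The 2 measured basal markers lay within the fold, with Trp63 at 2.79 in ILN/ILN and 3.50 in WT and Oxtr at 3.51 in ILN/ILN and 2.80 in WT. The 3 red cell markers were lower too, with Hbb-b1 at 1669 in ILN/ILN and 3323 in WT. The part of these cells in the complement differences was not tested.

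Fibroblasts and adipocytes can make C3 and factor B locally, and their part in the C3 and Cfb differences was not tested. None of 8 fibroblast markers passed the fold, with 4 below 0 and 4 above, and their summed level was 3734 in ILN/ILN and 3717 in WT. None of 8 white adipocyte markers did, with 2 below 0, 6 above and a median of 0.06. They summed to 49255 in ILN/ILN and 50029 in WT, and Fabp4 alone made up 39645 of that in ILN/ILN and 40797 in WT. None of 6 endothelial markers passed either, with a median of 0.33 and 5 of 6 above 0. Of the hepatocyte markers, Ttr and Fga were at 0 in both libraries, and Alb, encoding albumin, had 37.3 in ILN/ILN and 36.4 in WT. Hp, encoding haptoglobin, which fat also expresses, had 1437 in ILN/ILN and 2082 in WT, 1.45-fold lower (1.44 to 1.46).

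**Figure D5:**
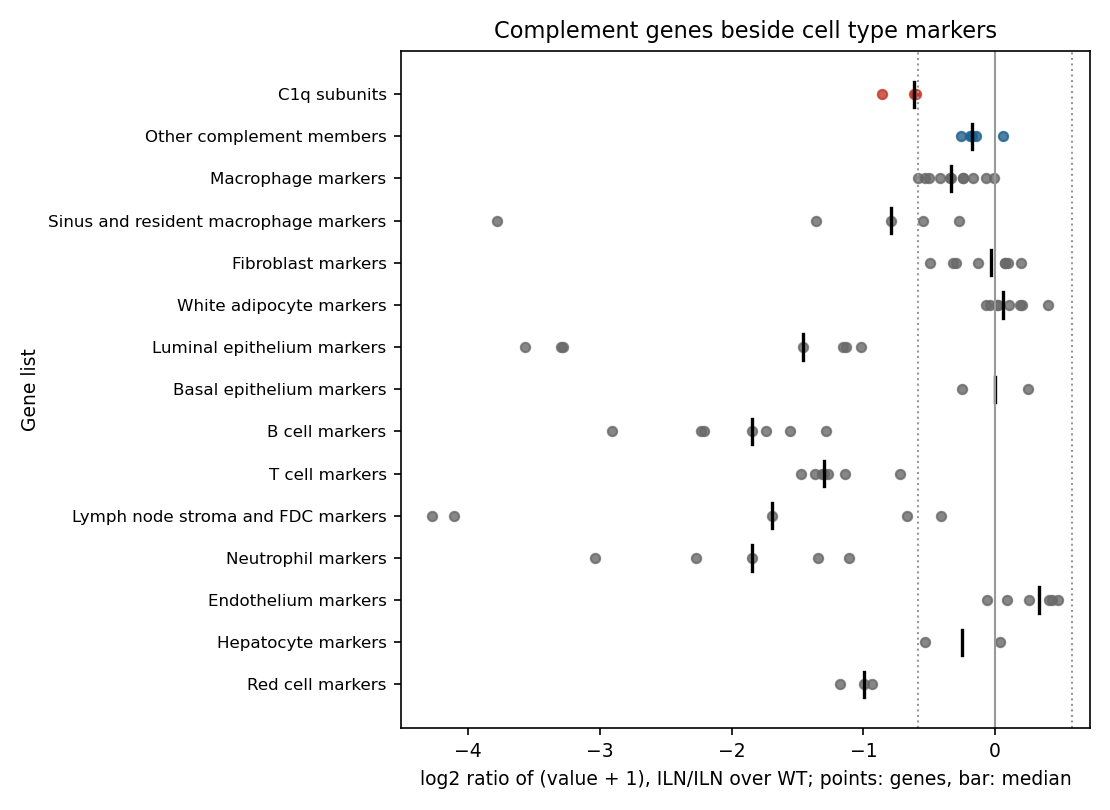
Log2 ratios of (value + 1), ILN/ILN over WT, for the C1q genes (red), the other complement members (blue) and measured genes of 13 cell type marker lists (grey), with the median of each list as a black bar and dotted lines at 1.5-fold. C1qa at -0.60 and C1qb at -0.61 lie just beyond the lowest macrophage marker at -0.59, and C1qc at -0.86 lies farther out. The macrophage median is -0.33. All 3 C1q genes lie within the spread of the sinus and resident macrophage list, and the other members lie between -0.26 and 0.06.

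In the RefSeq annotation of GRCm38.p6, the 3 nearest protein-coding genes with a row on each side of each locus gave 29 genes, of which 22 were measured, 1 was lower past the fold (4.55%, against 5.39% over all measured genes) and 0 were higher, with a median of 0.03. The gene past the fold was Vav1, a signalling gene of blood cells near C3, with 4.01 in ILN/ILN and 6.90 in WT. Around the C1q cluster 3 neighbours were measured. Kdm1a had 7.37 in ILN/ILN and 8.40 in WT, Ephb2 2.22 in ILN/ILN and 1.61 in WT, and Zbtb40 1.23 in ILN/ILN and 1.10 in WT. Around Cfb and C2 the 5 measured neighbours had log2 ratios from -0.15 to 0.11, and Tnxb, next to C4b, had 28.2 in ILN/ILN and 27.5 in WT.

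Of 942 other genes that reached a value of 100 in a library, 35 (3.72%) had a log2 ratio of fragments within 0.1 of the C1q median of -0.62. The 5 nearest were Ifitm3, Rpl30, Laptm5, Rcn3 and Rps7. Ifitm3, an interferon-induced membrane protein, had 707 in ILN/ILN and 1071 in WT. Laptm5, a lysosomal protein of blood cells, had 88.5 in ILN/ILN and 134 in WT. Rpl30 and Rps7 encode ribosomal proteins, with 1148 and 574 in ILN/ILN against 1783 and 894 in WT. The Rpl30 values rest on a deposited length of 79 bases. Likeness here is of 1 ratio from 2 libraries.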

How the data were processed

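Per the labels' protocols, polyadenylated RNA of the gland was broken by heat, cDNA was primed with random hexamers, and the dUTP-marked second strand was removed. Each sample was run on 2 lanes. Build mm9, TopHat 1.4.1, Bowtie 0.12.3 and bedtools appear in the submitters' processing notes without a role. The sources used here do not give the program, annotation or use of strand behind the gene tables.

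Per the file headers, the authors deposited 1 table per library with an FPKM-like value, scaled for length and library size. A further deposited column is log2(value + 1). The deposited signal per kilobase comes as an original, a derived and a final estimate, and the final one is the larger. Multiplied by the length deposited for each gene, the original estimate is a whole number, called fragments here. That length need not be the whole transcript, and for Rpl30 it is 79 bases. The sources used here do not say whether these are single reads or pairs. The files hold no coordinates, and promoter coordinates are those of RefSeq on GRCm38.p6, a build other than mm9.

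Ratios, exact conditional (Clopper-Pearson) 95% intervals and list counts were computed with Python 3.11.15, scipy 1.17.1 and pandas 2.3.3, with a pseudocount of 1, a minimum value of 1 and a 1.5-fold limit. Interval and fold steps were tested on simulated counts that held counting error only. That checks the computation and leaves variation between animals or libraries unmeasured. No test was run, since each genotype has 1 library. A count of 0 allows up to 3 fragments, which is 0.0698 in ILN/ILN and 0.0650 in WT once each library total is scaled to 1000000. Members, gene lists, motifs and rules were chosen with earlier results of these data known. All members and any gene of the wider list could be named, from each marker list up to 4 measured genes with the largest absolute log2 ratio and any defining marker at 0, the 3 nearest genes on each side of a locus, and the 5 genes with the ratio nearest to C1q. Lyz2 and Fabp4 fall outside that rule and were named because each holds most of its list's summed level. Alternatives covered the pseudocount, the estimate, the scaling, the minimum and the fold. The values of 1 gene of the wider list are not reported here.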

Additional observations from a re-analysis of the deposited data

How the results depend on the processing

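The main counts, medians and within-library ratios were recomputed under the alternatives. Of 101 values, 78 stayed within 1.5 times (counts) or within counting error (medians and ratios) of the reported value. The 78 include counts of 0 that stayed 0, for genes higher in ILN/ILN among the members, the wider list and the marker genes. Such counts say little about stability. The within-library ratios could not move, since each C1q gene has 1 isoform and its original and deposited estimates are equal. Counts for single marker lists were taken apart from the 101 values, and 246 stayed while 14 moved. The 246 include many counts of 0 that stayed 0. For every list the count higher in ILN/ILN was 0 under each setting. The count lower was also 0 throughout for fibroblast, white adipocyte, endothelial and hepatocyte markers. All 14 that moved were counts of genes lower in ILN/ILN. Each of the 8 members kept the sign of its log2 ratio. The count of members lower past the fold was 3 under each setting other than a 2-fold limit, where it was 0. The limit also left 2 genes lower on the wider list, and with a pseudocount of 0.1 that list had 1 gene higher. Over all measured genes, 225 were lower and 67 higher with a pseudocount of 5, 354 were lower and 140 higher with a minimum of 5, 199 were lower and 47 higher with a 2-fold limit, and 354 were higher with a pseudocount of 0.1. With a minimum of 50, added after seeing the data, 67 were lower and 25 higher, and 7 marker genes were lower in place of 37. The count of macrophage markers lower past the fold went from 1 to 0 with a pseudocount of 5, a TMM factor, a 2-fold limit or a minimum of 50. For luminal markers it went from 7 to 3 with a pseudocount of 5 or a minimum of 5, and to 0 with a minimum of 50. The members' median was -0.26 with a minimum of 5 or of 50, -0.19 without C1qa, C1qb, C1qc or C2, and -0.26 without C3, C4b, Cfb or C3ar1. Cfb went to -0.08 with fragments of the original estimate in place of the deposited value. Scaling by the median ratio, a TMM factor or the upper quartile moved log2 ratios by at most 0.02. C1qa stayed past the fold with log2 ratios from -0.61 to -0.59, close to the limit. For low genes such as C3ar1, Cr2 and Hc, depth limits what can be seen. No paired analysis was possible because each genotype has 1 library, and no replicate could be left out.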
